A study of Mus musculus with 9 samples.

Results

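The 10 genes described here control how pyruvate enters the mitochondrion and how it is turned into acetyl-CoA. They were chosen by exact gene symbol: the carrier genes *Mpc1* and *Mpc2*, the pyruvate dehydrogenase genes *Pdha1* and *Pdhb*, the kinase genes *Pdk1*, *Pdk2*, *Pdk3* and *Pdk4*, and the phosphatase genes *Pdp1* and *Pdp2*. All 10 were found among the 24356 gene symbols of each table, and all 10 were above 0 FPKM in every library, as were 14675 genes in all. FPKM are mapped fragments scaled by transcript length and by the depth of the library. This scaling does not itself correct for differences in RNA composition between libraries. Comparisons of levels between genes and between libraries are therefore approximate.

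The study measured poly A+ RNA of brown adipose tissue (BAT), the heat-producing fat, from growth hormone releasing hormone knockout mice (GHRH-KO) and their wild-type littermates (WT), to ask which transcripts differ when growth hormone is lacking. GHRH-KO mice carry a disrupted *Ghrh* gene and are short of growth hormone only. The mice were of a mixed C57BL6 and 129SV background, were kept at 20 to 23°C, ate chow freely and were killed under isoflurane, and the labels name no treatment that differed between groups. There were 2 KO females, 2 KO males, 3 WT females and 2 WT males, 1 library per mouse, and their ages are not given in the sources used here.

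Glycolysis ends in pyruvate in the cytosol. The carrier, a complex of MPC1 and MPC2, moves it across the inner mitochondrial membrane, and the pyruvate dehydrogenase complex converts it to acetyl-CoA, a step that cannot be reversed. Kinases of the PDK family phosphorylate the E1 alpha subunit and switch the complex off, and the PDP phosphatases switch it on again. *Pdk4* is known for being induced in fasting, when tissues spare glucose and burn fat, and brown fat uses both fuels to make heat.

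The sum of FPKM per library ran from 380558 to 443569, and depth estimated from the spacing of low values ran from 0.917 to 1.14 relative to WT female 1. KO male 1 stood apart, with Spearman correlations of 0.924 to 0.934 with the other libraries against 0.958 to 0.991 among those, and with a summed FPKM of 9 lymphocyte markers of 230.0 where the other 8 libraries had 2.13 to 4.78. *Ghrh* itself was at 0.233 to 0.846 FPKM in the 4 libraries labelled KO and 0 in all 5 labelled WT. With no *Ghrh* read in WT, a loss of the transcript could not be seen, so it does not check the labels. Why it was above 0 in KO was not tested, and every KO and WT below stands for the label. *Ghr*, the growth hormone receptor, was at 42.2 to 51.6 FPKM in KO and 62.8 to 155 in WT with no overlap (limma adjusted p 0.0660), and the growth hormone target *Igf1* at 0.713 to 2.46 and 2.13 to 8.80 with overlap (adjusted p 0.0661). All 9 brown adipocyte markers were above 0 in every library, and their summed FPKM was 6393 to 8274 in KO and 6016 to 7834 in WT. The 14 skeletal muscle markers were also above 0 in every library, with a summed FPKM of 2997 to 12884 in KO and 461 to 2496 in WT, and the groups did not overlap. White adipocyte markers summed to 50.3 to 110 FPKM in KO and 96.4 to 355 in WT, with *Hoxc10* at 0 in every library. Of the 7 tested, 0 had a higher mean in KO, with a median log2 difference of -0.97 against -0.07 over all tested genes. Only the leptin gene *Lep* was lower at an adjusted p under 0.05 (log2 difference -3.21, limma adjusted p 0.0426). Of all tested genes, 2.17% were lower at that threshold. *Lep* no longer passed without KO male 1. The sums of 5 endothelial markers were 90.9 to 135 FPKM in KO and 120 to 151 in WT. Their part in the comparisons below was not tested, and fewer cells of a type cannot be told apart from less RNA per cell.

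None of the 10 genes passed an adjusted p of 0.05 for KO minus WT over both sexes (limma, Benjamini-Hochberg over all 14675 genes), where 3.6% of all tested genes did, 1.43% higher and 2.17% lower in KO. Of the 10, 8 had a higher mean in KO on the log2 scale, with a median log2 difference of 0.24 against -0.07 over all tested genes. At an unadjusted p under 0.05, 3 of the 10 were higher, namely *Mpc2*, *Mpc1* and *Pdp1*, and 0 were lower, where 5.99% of all tested genes were higher and 14.2% lower. Without KO male 1, too, 0 of the 10 passed the adjusted threshold, where 3.01% of all tested genes did.

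**Figure D1:**
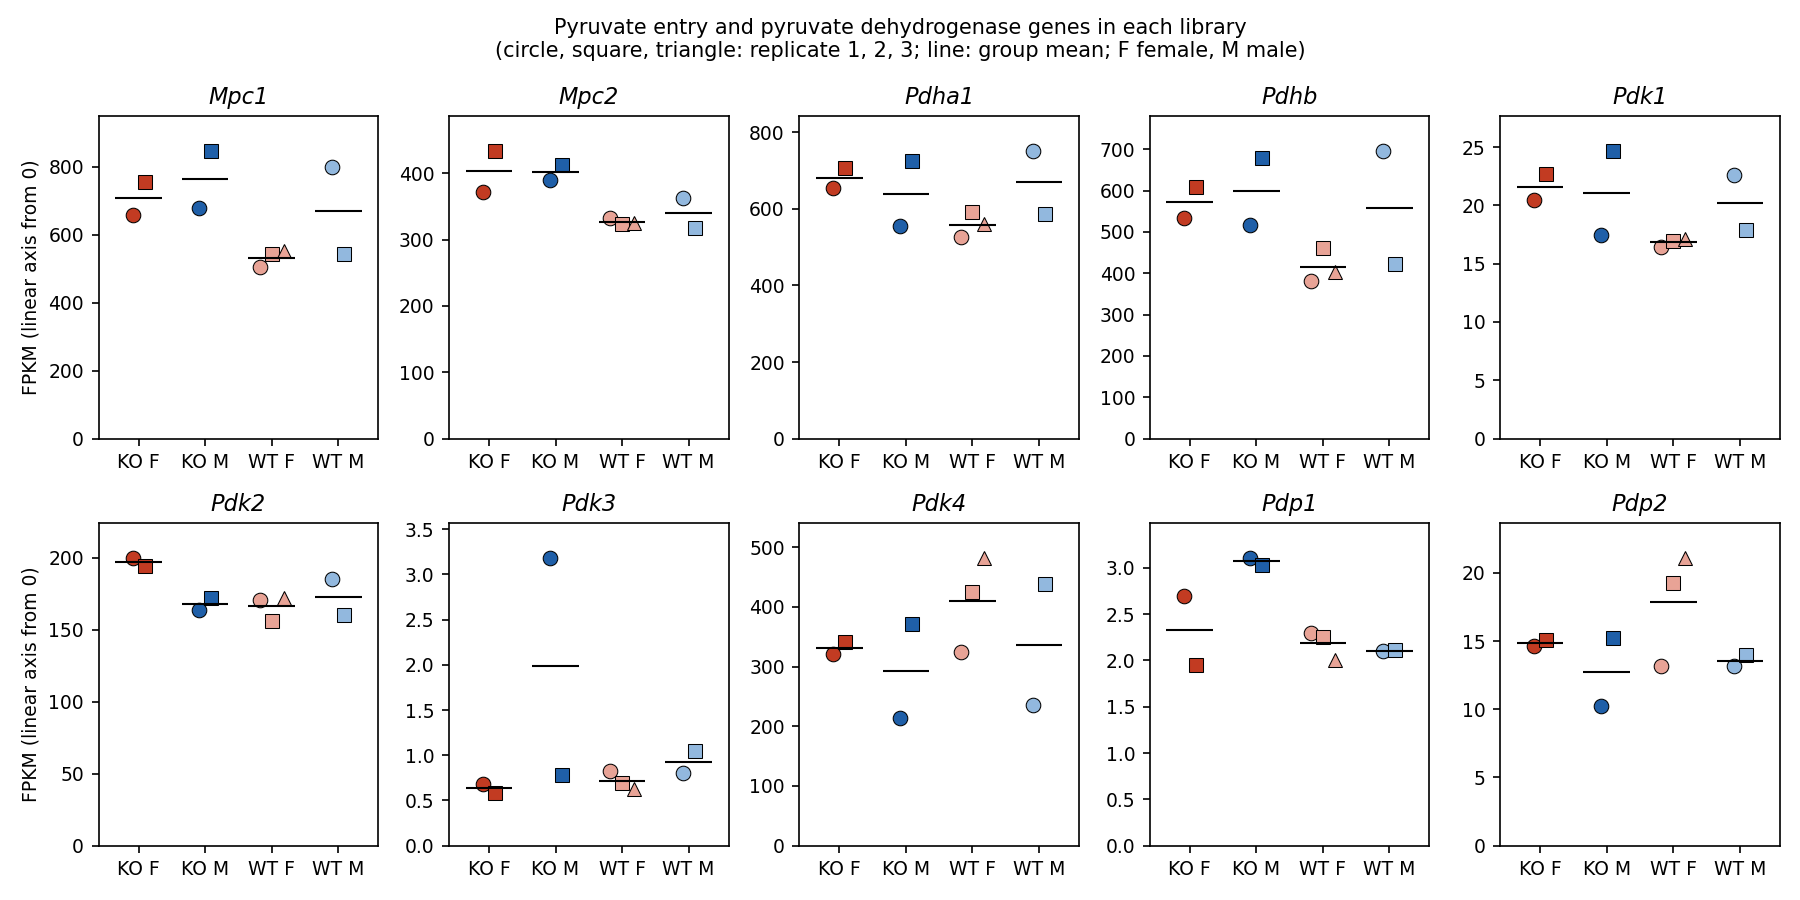
FPKM of each gene in the 9 libraries (vertical axes linear from 0), by group, with symbols for replicates and a line for each group mean. *Mpc2* is the only gene whose 4 KO points (372 to 434) all lie above its 5 WT points (317 to 362), and *Pdk3* has 1 far point, KO male 1 at 3.18.

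Of the 10 genes, the carrier gene *Mpc2* had the lowest p for KO minus WT over both sexes. *Mpc2* (chr1:165460637-165481214, plus strand, up to 5 exons) was at 372 and 434 FPKM in the KO females, 390 and 413 in the KO males, 332, 324 and 326 in the WT females, and 362 and 317 in the WT males. Every KO library was above every WT library, although KO female 1 and WT male 1 were close. The means were 402 ± 27.0 (SD, n = 4) and 332 ± 17.6 FPKM (n = 5), a log2 difference of 0.27 (SE 0.07, unadjusted p 0.00688, limma adjusted p 0.0864, 0.0716 to 0.356 over the alternatives). With each library left out in turn it was 0.21 to 0.33. Of all tested genes, 3.03% were higher in KO with no overlap between the groups, and *Mpc2* was the only one of the 10. None of the 10 was lower without overlap, where 6.04% of all genes were. Without KO male 1, *Mpc2* was again the only one higher without overlap (3.98% of all genes) and none was lower (13.5%). Within KO, *Mpc2* was at 434 FPKM in KO female 2, the library with the least skeletal muscle marker RNA (2997). In KO male 1, which had the most (12884), it was at 390. KO female 1 and KO male 2, with similar muscle sums (6705 and 6742), had 372 and 413. Within WT, it was at 317 in WT male 2, which had the least (461). In WT female 1, which had the most (2496), it was at 332. WT female 2 and WT female 3, with 1633 and 1252, had 324 and 326. WT male 1, with the highest *Mpc2* value of the WT libraries, had 2287. Both the muscle sum and *Mpc2* separated KO from WT without overlap, so muscle RNA and genotype cannot be told apart here. The part of muscle RNA in the difference was not tested.

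*Mpc1* (chr17:8282904-8297661, plus strand, up to 6 exons), the obligate partner of *Mpc2* in the carrier, was at 660 and 756 FPKM in the KO females, 680 and 848 in the KO males, 506, 543 and 551 in the WT females, and 798 and 544 in the WT males. WT male 1 was higher than all KO libraries but 1, and the other 4 WT libraries were lower than all KO libraries. The log2 difference was 0.31 (SE 0.13, limma adjusted p 0.242). It was 0.17 without WT male 2 (SE 0.11, adjusted p 0.545) and 0.44 without WT male 1 (SE 0.10, adjusted p 0.0629). Without WT male 1, *Mpc1*, *Mpc2* and *Pdhb* were higher in KO without overlap, where 3.96% of all tested genes were, and none of the 10 was lower (8.93% of all genes). For *Mpc1* and *Pdhb*, WT male 1 was the only WT library that overlapped KO, so leaving it out fixed this outcome. The share over all genes is therefore no fair comparison for them. *Mpc1* exceeded *Mpc2* by 1.74 to 2.05 times in KO and 1.52 to 2.20 times in WT libraries.

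Of the 50-base stretches of the *Mpc1* transcripts, 26.3% also occur in transcripts of other genes, among them the antisense gene *4930506C21Rik* and *Mpc1-ps*. Its FPKM are therefore less certain than those of *Mpc2*, which shares 0.122%.

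The promoter regions of the carrier pair, of *Pdhb*, which followed *Mpc1* most closely over the libraries, and of *Pdk4*, whose mean went the other way, are shown for their sequence context. Each is the 250 bases before a RefSeq start site (GRCm38.p6), written 5′ to 3′ on the gene's strand, and *Mpc1* has a second start site that is not shown. Capitals mark the GC box, searched as GGGCGG, or the CCAAT box, searched by the letters of its name, on either strand.
Mpc1, chr17:8283537-8283786, plus strand: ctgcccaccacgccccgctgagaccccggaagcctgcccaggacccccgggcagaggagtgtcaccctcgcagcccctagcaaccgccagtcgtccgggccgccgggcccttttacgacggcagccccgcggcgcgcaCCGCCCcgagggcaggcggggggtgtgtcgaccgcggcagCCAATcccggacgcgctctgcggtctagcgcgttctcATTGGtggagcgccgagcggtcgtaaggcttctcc
Mpc2, chr1:165461010-165461259, plus strand: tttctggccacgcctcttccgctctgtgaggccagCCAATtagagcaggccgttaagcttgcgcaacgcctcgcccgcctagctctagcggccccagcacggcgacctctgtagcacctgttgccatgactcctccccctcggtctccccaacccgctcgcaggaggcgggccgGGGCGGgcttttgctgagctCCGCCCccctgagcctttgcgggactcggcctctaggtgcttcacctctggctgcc
Pdhb, chr14:8172993-8173242, minus strand: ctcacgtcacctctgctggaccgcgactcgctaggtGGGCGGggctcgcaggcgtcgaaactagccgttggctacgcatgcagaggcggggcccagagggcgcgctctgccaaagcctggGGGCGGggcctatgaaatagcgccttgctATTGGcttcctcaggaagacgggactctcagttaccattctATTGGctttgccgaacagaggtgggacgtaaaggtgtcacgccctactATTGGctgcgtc
Pdk4, chr6:5496279-5496528, minus strand: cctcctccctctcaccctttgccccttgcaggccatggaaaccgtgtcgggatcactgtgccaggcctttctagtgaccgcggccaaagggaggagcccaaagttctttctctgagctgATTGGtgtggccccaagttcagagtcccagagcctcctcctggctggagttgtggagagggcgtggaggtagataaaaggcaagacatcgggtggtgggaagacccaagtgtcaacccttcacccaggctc
The *Mpc2* window holds 2 GC boxes and 1 CCAAT box, that of *Mpc1* 1 and 2, that of *Pdhb* 2 and 3, and that of *Pdk4* 0 and 1. Windows were found for 9 of the 10 genes, 12 windows in all. Of these, 7 held a GC box and 7 a CCAAT box, where 32.7% and 33.8% of all 32851 windows did. The windows of the 10 genes were 58.8 to 73.6% G and C, except 1 of *Pdk1* at 38.4%. The median over all windows was 52.4%, and the part of base composition in these counts was not tested. No window of the 10 genes held TNAAGGTCA (the element bound by estrogen-related receptors, in 1.14% of all windows), GTAAACA (FOXO, 3.17%), the NRF1 element (3.74%) or TATAAA (12.4%), each searched on both strands. With 12 windows and shares this small, finding none says little. Sites with other letters or outside the 250 bases were not searched. Neither of GGGCGG and CCAAT contains the other on either strand, though neighbouring matches can share bases.

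Pyruvate dehydrogenase E1 is built from the alpha subunit encoded by *Pdha1*, which carries the phosphorylation sites, and the beta subunit encoded by *Pdhb*. *Pdha1* (chrX:160122209-160138413, minus strand, up to 11 exons) was at 655 and 707 FPKM in the KO females, 556 and 725 in the KO males, 526, 592 and 560 in the WT females, and 752 and 587 in the WT males. The highest value was in a WT library and the groups overlapped. The log2 difference was 0.11 (SE 0.11, limma adjusted p 0.669), and it depended on single males, at 0.20 without KO male 1 (adjusted p 0.251), 0.20 without WT male 1 (0.383), 0.01 without KO male 2 (0.953) and 0.02 without WT male 2 (0.966).

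*Pdhb* (chr14:8165996-8173025, minus strand, up to 10 exons) was at 534 and 609 FPKM in the KO females, 517 and 679 in the KO males, 381, 460 and 403 in the WT females, and 696 and 422 in the WT males. WT male 1 was the highest of all 9 libraries, and the other 4 WT libraries lay below every KO library. The log2 difference was 0.30 (SE 0.16, limma adjusted p 0.370). It was 0.48 without WT male 1 (SE 0.12, adjusted p 0.0862) and 0.12 without WT male 2 (SE 0.13, adjusted p 0.771).

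The *Pdha1* to *Pdhb* ratio, which does not depend on how a library is scaled, was 1.23 and 1.16 in the KO females, 1.08 and 1.07 in the KO males, 1.38, 1.29 and 1.39 in the WT females, and 1.08 and 1.39 in the WT males. The 4 KO libraries and WT male 1 had the more even ratios. Of the 50-base stretches, 12.9% of *Pdha1* and 11.4% of *Pdhb* also occur in other genes, mainly *Map3k15*, which overlaps *Pdha1* on the opposite strand, and *Gm6123*. Whether the counting used strand is not given in the sources used here.

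Of 9 listed genes for the other subunits, cofactors and their transport, 0 passed the threshold in either direction, and their median log2 difference was 0.01 against -0.07 over all tested genes. *Dld*, the E3 subunit and the most highly expressed of the list, had means of 303 FPKM in KO and 295 in WT (log2 difference 0.03, SE 0.08, limma adjusted p 0.890).

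**Figure D2:**
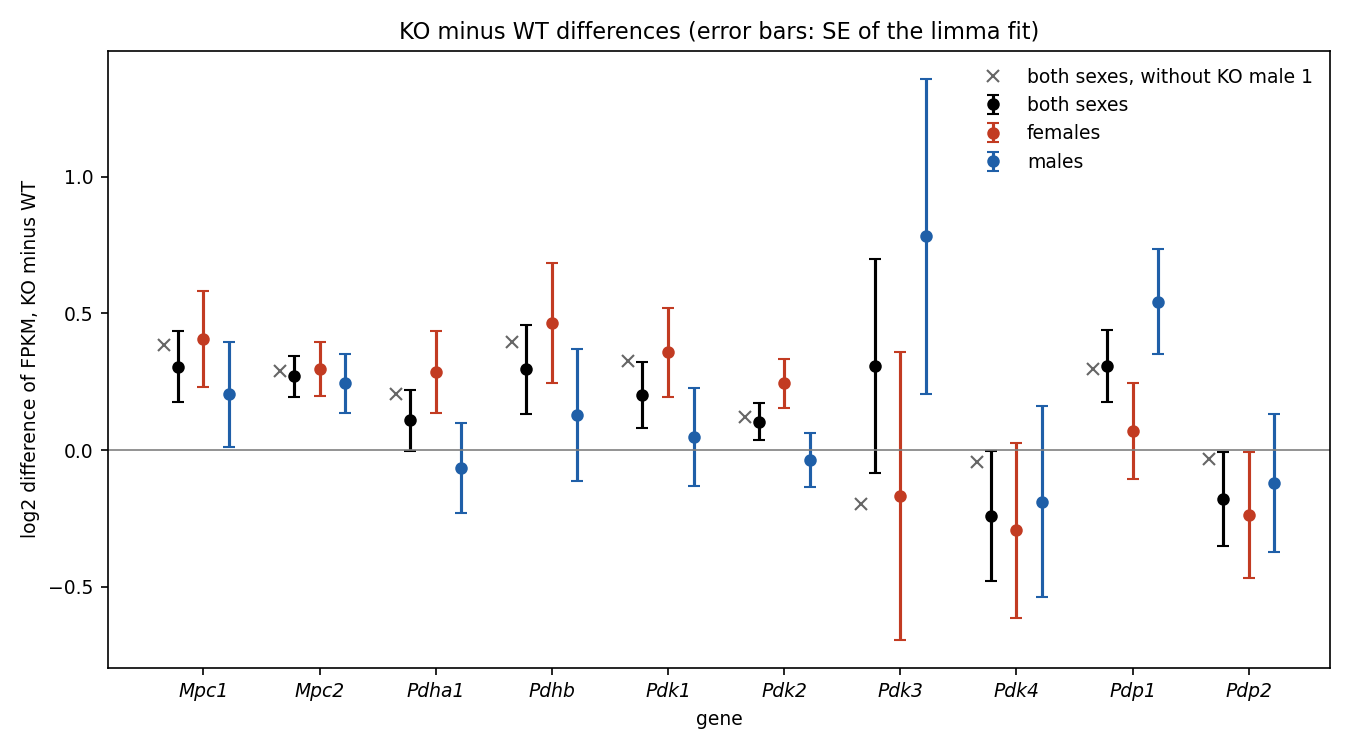
KO minus WT log2 difference of FPKM for each gene over both sexes, in females and in males, with the SE of the limma fit as error bars, and crosses for both sexes without KO male 1. *Mpc2* is 0.30 in females and 0.24 in males, and *Pdk3* goes from 0.31 to -0.20 without KO male 1.

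The 4 kinase genes differed far more in level than between genotypes. *Pdk4* made up 53.7 to 65.3% of the summed kinase FPKM in KO and 53.0 to 71.7% in WT, and *Pdk2* most of the rest, at 30.2 to 41.1% and 25.6 to 41.7%. *Pdk1* contributed 2.55 to 5.09% over the 9 libraries and *Pdk3* under 1% in each, from 0.0933 to 0.798%. The kinase sum was 517 ± 79.7 FPKM in KO (SD, n = 4) and 569 ± 90.4 in WT (n = 5), with overlap.

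*Pdk4* (chr6:5483351-5496309, minus strand, up to 11 exons) was at 321 and 341 FPKM in the KO females, 214 and 371 in the KO males, 325, 425 and 482 in the WT females, and 235 and 438 in the WT males. The 3 highest values were in WT libraries, but WT male 1 was lower than all KO libraries except KO male 1. The log2 difference was -0.24 (SE 0.24, limma adjusted p 0.657). Each of the 4 males moved it, to -0.04 without KO male 1 (adjusted p 0.925), -0.44 without KO male 2 (0.274), -0.46 without WT male 1 (0.295) and -0.02 without WT male 2 (0.989).

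*Pdk2* (chr11:95026258-95041354, minus strand, up to 11 exons), a kinase found in most tissues, had the narrowest range of the 10 genes. It was at 199.95 and 194 FPKM in the KO females, 164 and 172 in the KO males, 171, 156 and 172 in the WT females, and 185 and 160 in the WT males. Only the KO females stood above the rest. The log2 difference over both sexes was 0.10 (SE 0.07, limma adjusted p 0.456), 0.05 without WT male 2 (adjusted p 0.817) and 0.15 without WT male 1 (0.269).

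*Pdk1* (chr2:71873224-71903858, plus strand, up to 11 exons), a kinase known as a target of the hypoxia factor HIF-1, was at 20.5 and 22.7 FPKM in the KO females, 17.5 and 24.7 in the KO males, 16.4, 16.9 and 17.1 in the WT females, and 22.6 and 17.9 in the WT males. The groups overlapped, with WT male 1 above KO female 1 and KO male 1. Over the 9 libraries its centred log2 values were nearer to those of *Pdha1* than of any other of the 10, at a root mean square difference of 0.07. The log2 difference was 0.20 (SE 0.12, limma adjusted p 0.410), 0.33 without KO male 1 (adjusted p 0.0978), 0.08 without KO male 2 (0.669) and 0.12 without WT male 2 (0.764).

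*Pdk3* (chrX:93764607-93832201, minus strand, up to 12 exons) was near 1 FPKM or lower in 8 libraries, at 0.685 and 0.583 in the KO females, 0.783 in KO male 2, 0.827, 0.689 and 0.627 in the WT females, and 0.801 and 1.05 in the WT males. KO male 1 was at 3.18 FPKM. The same library had 230.0 FPKM of lymphocyte markers and 404 FPKM of macrophage markers, where the others had at most 4.78 and 97.8. The part of these cells in the *Pdk3* value was not tested. The log2 difference of 0.31 over both sexes (SE 0.39, limma adjusted p 0.752) became -0.20 without KO male 1 (adjusted p 0.562) and 0.81 without KO male 2 (adjusted p 0.0515). With KO male 1 as the only KO male, the log2 difference of *Pdk3* was 1.79 in males. In the same fit the interaction of genotype with sex was 1.96, and males against females differed by 1.35. These 3 values rest on that library.

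Among 10876 other genes with a mean of at least 1 FPKM, the 3 whose centred log2 values were nearest to those of *Pdk3* over the 9 libraries were *Man1a*, *Birc3* and *Smap2*, with root mean square differences of 0.17, 0.21 and 0.21. *Birc3*, an inhibitor of apoptosis in the NF-kappaB pathway, was at 10.7 FPKM in KO male 1 and 1.73 to 2.35 in the others. For *Pdk4* they were *Hmgcs1*, an enzyme of cholesterol synthesis, *Tmem253* and *Zfp948*, at 0.12, 0.16 and 0.17. *Hmgcs1* was lowest in KO male 1 (30.4 FPKM) and WT male 1 (33.8) and highest in WT female 3 (58.2), as was *Pdk4*.

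The summed phosphatase FPKM was 13.3 to 23.1 over the 9 libraries, where the kinase sum was 399 to 672, and the mean differences of the phosphatase genes had opposite signs. *Pdp2* (chr8:104591451-104599026, plus strand, 2 exons), the form known to be regulated in fasting and by insulin, was at 14.6 and 15.1 FPKM in the KO females, 10.2 and 15.2 in the KO males, 13.2, 19.3 and 21.1 in the WT females, and 13.2 and 14.0 in the WT males. The groups overlapped, with a log2 difference of -0.18 (SE 0.17, limma adjusted p 0.648). It was -0.03 without KO male 1 (adjusted p 0.916), -0.11 without WT female 3 (0.825), -0.28 without WT female 1 (0.353) and -0.32 without KO male 2 (0.266).

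*Pdp1* (chr4:11958184-11966452, minus strand, up to 3 exons), the calcium-stimulated form, was at 2.69 and 1.95 FPKM in the KO females, 3.11 and 3.03 in the KO males, 2.30, 2.26 and 2.00 in the WT females, and 2.10 and 2.11 in the WT males. KO female 2 was the lowest library of all, and the other 3 KO libraries were above every WT library. The log2 difference was 0.31 (SE 0.13, unadjusted p 0.0484, limma adjusted p 0.244). It was 0.19 without KO female 1 and 0.42 without KO female 2.

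**Figure D3:**
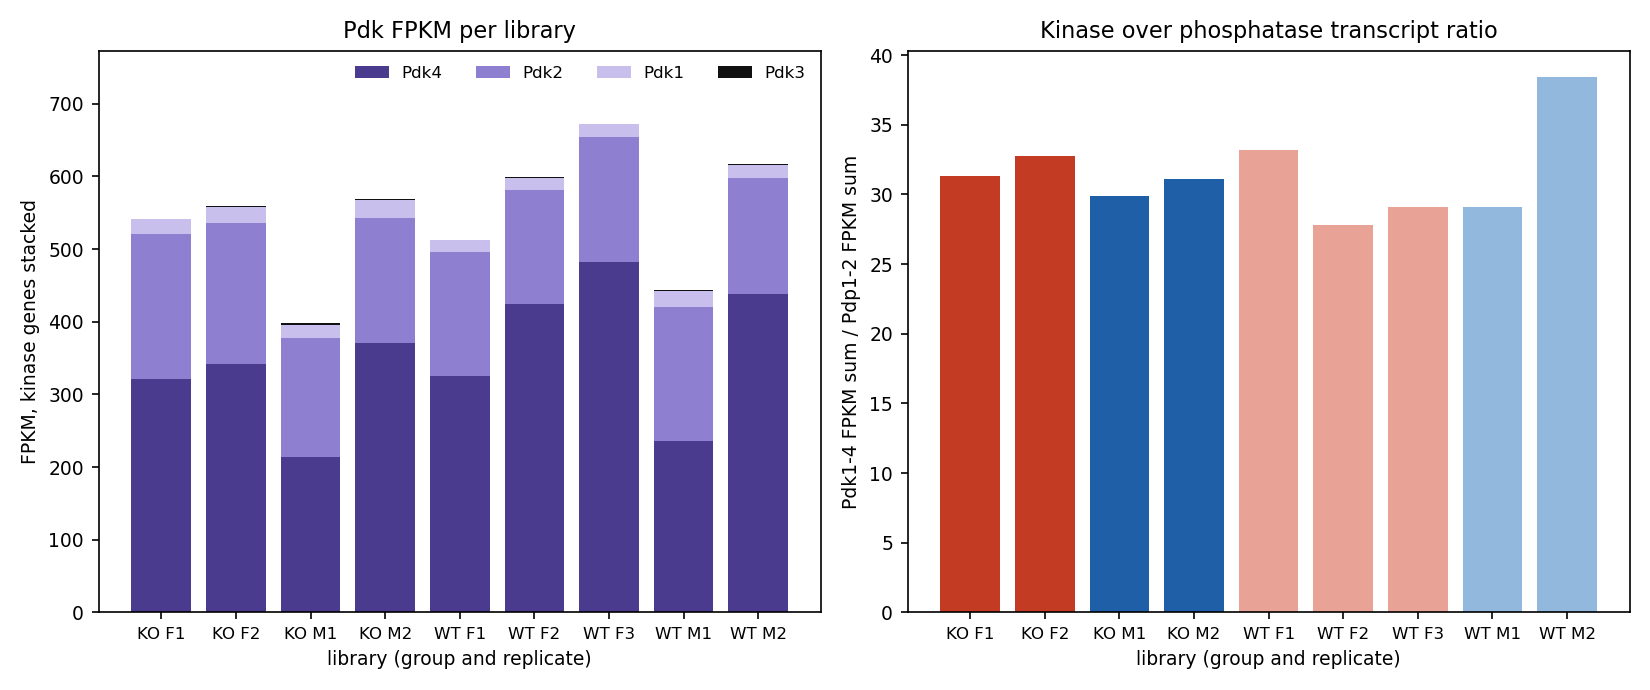
Left, FPKM of the 4 kinase genes stacked for each library. Right, the summed kinase FPKM divided by the summed phosphatase FPKM, with bars coloured by group. *Pdk4* is the largest part of every bar, and the ratio is 29.9 to 32.8 in KO and 27.8 to 38.4 in WT.

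The ratio of summed kinase to summed phosphatase FPKM was 31.3 ± 1.17 in KO (SD, n = 4) and 31.5 ± 4.35 in WT (n = 5). WT male 2 had the highest ratio, 38.4, and the KO libraries lay within the WT range. The kinase sum relative to the mean of *Pdha1* and *Pdhb* was 0.911 and 0.849 in the KO females, 0.743 and 0.811 in the KO males, 1.13, 1.14 and 1.40 in the WT females, and 0.613 and 1.22 in the WT males. It was below 1 in all KO libraries and in WT male 1, and above 1 in the other 4 WT libraries. These ratios are descriptions with no test.

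Ordered by mean FPKM over the 9 libraries, the genes ran *Mpc1* (654), *Pdha1* (629), *Pdhb* (522), *Mpc2* (363), *Pdk4* (350.3), *Pdk2* (175), *Pdk1* (19.6), *Pdp2* (15.1), *Pdp1* (2.39) and *Pdk3* (1.03). The first 6 were above at least 97.5% of tested genes. *Mpc1* and *Pdha1* were not separated, with *Mpc1* higher in 5 of 9 libraries (4 of 4 KO and 1 of 5 WT), and neither were *Mpc2* and *Pdk4* (6 of 9, again 4 of 4 KO). *Pdk1* exceeded *Pdp2* in 7 of 9 libraries and *Pdp1* exceeded *Pdk3* in 8 of 9. All other neighbours kept their order in every library.

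In females 0 of the 10 passed an adjusted p of 0.05, where 0.0204% of all tested genes did. The KO females lay above the WT females without overlap for 6 of the 10, namely *Mpc1*, *Mpc2*, *Pdha1*, *Pdhb*, *Pdk1* and *Pdk2*, where 13.8% of all tested genes did, and 0 lay below, where 26.6% did. *Mpc1* differed by 0.41 (SE 0.17, limma adjusted p 0.393), *Pdhb* by 0.46 (SE 0.22, adjusted p 0.434) and *Pdk2* by 0.24 (SE 0.09, adjusted p 0.335) on the log2 scale. In males 0 of 10 passed, where 0.0136% of all genes did, and only *Mpc2* and *Pdp1* were higher in KO without overlap, where 10.8% of all genes were, and 0 were lower, where 28.7% were. *Pdp1* differed by 0.54 in males (SE 0.19, adjusted p 0.214) and 0.07 in females (SE 0.18, adjusted p 0.909).

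The difference between the sexes was tested by the interaction of genotype with sex, and 0 of the 10 genes passed it, as did 0% of all tested genes (limma, 1028 genes at an unadjusted p under 0.05, and 0 of the 10). The lowest unadjusted p was that of *Pdk2* (interaction -0.28, SE 0.13, unadjusted p 0.0720, limma adjusted p 0.709). Males and females differed in 0 of the 10 genes with the genotypes averaged, where 0.0136% of all genes passed, and the largest difference, 0.85 for *Pdk3* (SE 0.39, limma adjusted p 0.511), was 0.34 without KO male 1.

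Upstream of the carrier, 13 of 15 listed genes of glycolysis had a higher mean in KO over both sexes. Of the 15, 3 rose at an adjusted p under 0.05, where 1.43% of all genes did, and 0 fell, with a median log2 difference of 0.42 against -0.07 over all genes. *Gapdh* had means of 401 FPKM in KO and 232 in WT (log2 difference 0.76, SE 0.12, limma adjusted p 0.0320), *Pfkp*, the platelet form of phosphofructokinase, 23.5 and 15.2 (0.60, SE 0.08, adjusted p 0.0285), and *Tpi1* 282 and 218 (0.38, SE 0.08, adjusted p 0.0454). *Aldoa*, the most highly expressed of the list at 2784 and 1660 FPKM, did not pass (0.73, SE 0.16, adjusted p 0.0501). *Gapdh* and *Pfkp* no longer passed without any 1 of the WT females, the KO females or WT male 2 (adjusted p up to 0.134 and 0.130), and *Tpi1* passed only without KO male 2 (up to 0.173). The list includes the muscle forms *Pgam2* and *Eno3*, and all 14 skeletal muscle markers had higher means in KO, 3 of them past the threshold and 0 without KO male 1. *Pfkm* and *Aldoa*, also in the list, are likewise the forms of phosphofructokinase and aldolase found in muscle. The part of muscle RNA in the glycolysis values was not tested.

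Glycolysis genes also set WT male 1 apart. Their summed FPKM was 5331 in that library, 3398 to 3720 in the other WT libraries and 5205 to 6911 in KO. The skeletal muscle sum of WT male 1 was 2287, where the WT females had 2496, 1633 and 1252 and WT male 2 had 461. The part of muscle RNA in the glycolysis sum of WT male 1 was not tested.

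**Figure D4:**
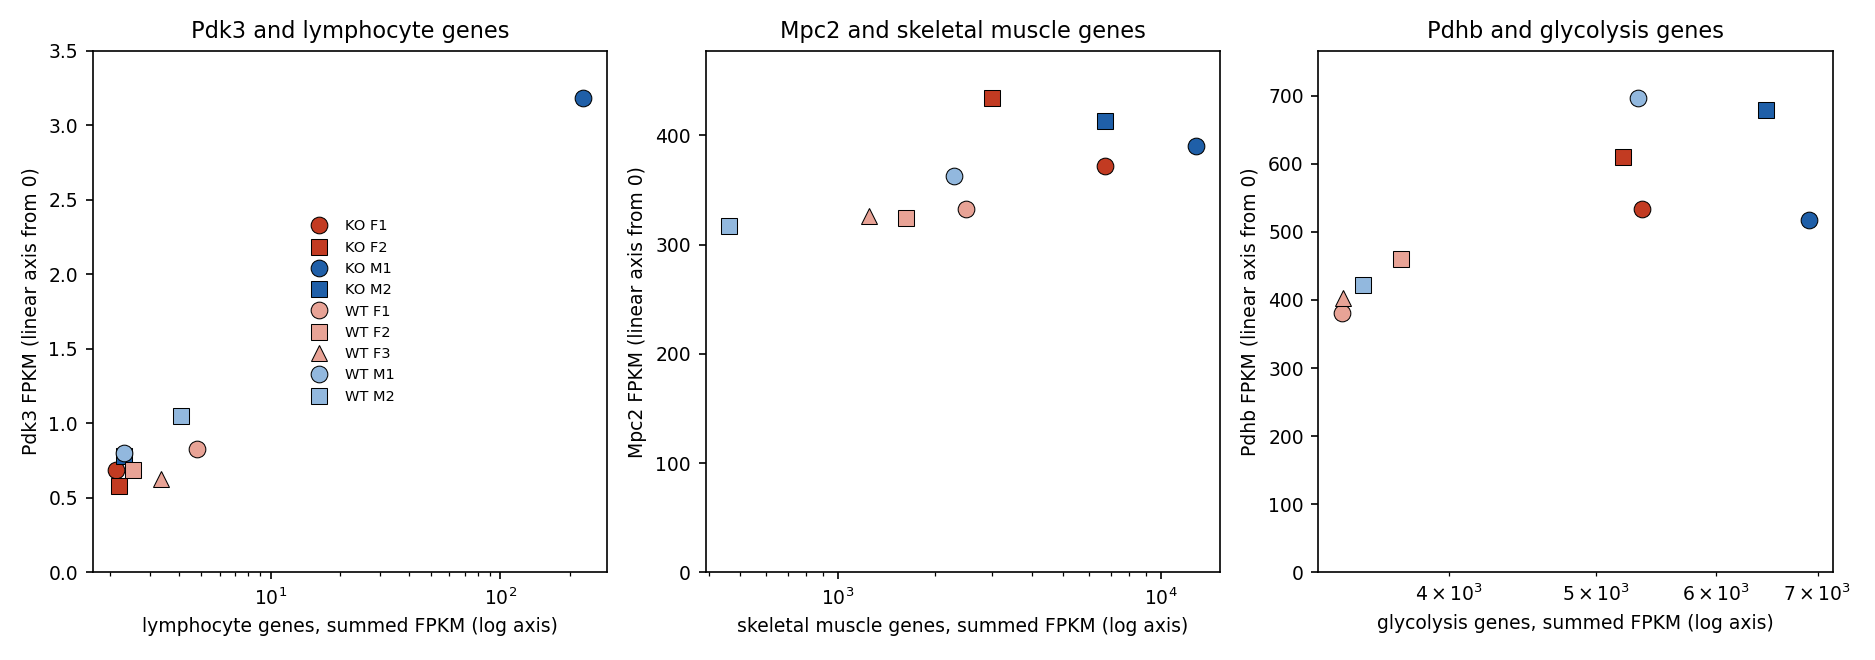
Left, *Pdk3* FPKM against the summed FPKM of 9 lymphocyte markers, middle, *Mpc2* FPKM against 14 skeletal muscle markers, and right, *Pdhb* FPKM against 15 glycolysis genes, 1 point per library, with log horizontal axes and linear vertical axes from 0. KO male 1 is alone at the upper right of the left panel (230.0 and 3.18), and WT male 1 lies near the KO libraries in the right panel (5331 and 696).

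The other 4 pathway lists gave no gene past the threshold over both sexes. For pyruvate formation and lactate exchange, 10 of 11 listed genes were tested, 0 passed, and the median log2 difference was 0.04. A higher mean in KO was found for 6 of those tested. *Pkm*, a pyruvate kinase, had means of 635 FPKM in KO and 450 in WT (0.49, SE 0.11, limma adjusted p 0.0559). The part of muscle RNA in the *Pkm* values was not tested. *Ldha*, which interconverts pyruvate and lactate, had means of 777 FPKM in KO and 604 in WT (0.34, SE 0.10, limma adjusted p 0.1001). Other uses of mitochondrial pyruvate and acetyl-CoA (8 genes) had a median of 0.04, with citrate synthase *Cs* at 719 and 762 FPKM (-0.09, SE 0.07, adjusted p 0.545). The 12 transcription regulators known to act on the *Pdk* genes had a median of 0.04, with *Pparg*, the main adipocyte regulator, at 122 and 118 FPKM (0.04, SE 0.06, adjusted p 0.783). For the 13 tested of 14 PPAR target genes the median was -0.03, with the fatty acid oxidation enzyme *Acadl* at 1251 and 1129 FPKM (0.12, SE 0.11, adjusted p 0.611).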

How the data were processed

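Brown adipose RNA of 9 mice was sequenced as paired reads of 50 bases. The authors deposited 1 table of FPKM per library, after read conversion (bcl2fastq 1.8.4), alignment to the mm10 mouse genome (TopHat 2.0.11) and abundance estimates that the methods credit to Bowtie. The gene annotation they used is not given in the sources used here, and fragment counts were not used here, so precision is judged from the spread between libraries. Libraries are numbered in accession order. log2 FPKM of the 14675 genes above 0 in all 9 libraries were fitted with a mean per genotype and sex group (limma 3.58.1 in R 4.3.3, mean-variance trend), and KO minus WT weights the sexes equally. Adjusted p-values are by Benjamini-Hochberg over all tested genes, read at 0.05. Those called unadjusted were left as the fit gave them. The script was tested on simulated data. The members and lists were chosen with earlier results of these data known. Named are the 10 members, up to 3 passing genes and the most highly expressed gene of each list, and the 3 genes nearest in pattern to the 2 members of widest range. *Pgam2*, *Eno3*, *Pfkm*, *Pkm* and the genes sharing sequence were added after values were seen. Positions come from GENCODE M21 (GRCm38) and promoters from RefSeq (GRCm38.p6). Alternatives were a pseudocount of 1, other filters on low values, median centring, quantile normalization, an ordinary linear model (adjusted, and unadjusted at 0.01) and leaving out each library. The counts without overlap lacking KO male 1 or WT male 1 were added after the data were seen. p-values measure the spread between these mice. Relative depth was read from values of 0.001 to 0.15 FPKM. Python 3.11.15 with pandas 2.3.3 and matplotlib 3.10.9 was used for the rest. Serum metabolomics were not analysed here.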

Additional observations from a re-analysis of the deposited data

Results flagged for a closer look

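A library was flagged when its gap to the nearest other library, as a share of the range of its genotype, exceeded Dixon's 95% critical value. Of 28 groups of values examined, 7 had such a library, and chance flags about 1 in 20 for a single group. The groups share libraries and genes, so the flags are not independent and their number cannot be set against that rate. WT male 1 was flagged 4 times, for *Mpc1* (798 FPKM against 506 to 551 in the other WT libraries), *Pdhb* (696 against 381 to 460), *Pdk1* (22.6 against 16.4 to 17.9) and the ratio of *Mpc1* to *Mpc2* (2.20 against 1.52 to 1.71). KO male 1 was flagged for *Pdk3* (3.18 FPKM against 0.583 to 0.783 in the other KO libraries) and *Pdp2* (10.2 against 14.6 to 15.2). KO male 2 was flagged for the ratio of *Mpc1* to *Mpc2* (2.05 against 1.74 to 1.77).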

How the results depend on the processing

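No paired analysis was possible because the labels carry no replicate numbers shared between groups, and the numbers used here only name the libraries. The causes of the changes below were not tested. Of 14675 tested genes, 529 passed over both sexes, against 170 with no filter on low values, 222 with median centring, 19 in an ordinary linear model and 1107 at its unadjusted p under 0.01 (1 of the 10 members, *Mpc2*), and 8 to 1105 when single libraries were left out. In females the count was 3, against 11 with a mean of at least 1 FPKM, 1 in the ordinary model, 503 at its unadjusted p and 0 to 19 without single libraries. In males it was 2, against 0 with a pseudocount of 1, 19 with a mean of at least 1 FPKM, 1 with no filter, 1 with quantile normalization, 0 in the ordinary model, 777 unadjusted and 0 to 1293 without single libraries. For the interaction it was 0, against 244 unadjusted and 0 to 721 without single libraries, and for sex 2, against 10 with no filter, 1 with median centring, 8 in the ordinary model, 461 unadjusted and 1 to 803 without single libraries. Without single libraries 0 members passed over both sexes or in females. In males, in the interaction and for sex, the calls of members changed only for *Pdk3* without KO male 2. That fit left KO male 1 as the only KO male. Without KO male 1, 1 member was higher in KO with no overlap, where 3.98% of all tested genes were. Without WT male 1 it was 3 members, where 3.96% of all tested genes were. For *Mpc1* and *Pdhb* among them, the outcome was fixed by leaving out the only WT library that overlapped KO.

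Some log2 differences changed sign. Median centring gave -0.03 for *Mpc2* by sex, and quantile normalization gave 0.0419 for *Pdk2* in males and 0.0094 for *Pdk3* in females. Without single libraries the KO minus WT differences in males ran from -0.0725 to 0.48 for *Mpc1*, -0.26 to 0.13 for *Pdha1*, -0.23 to 0.49 for *Pdhb*, -0.20 to 0.30 for *Pdk1*, -0.14 to 0.0658 for *Pdk2*, -0.23 to 1.79 for *Pdk3*, -0.64 to 0.26 for *Pdk4* and -0.41 to 0.17 for *Pdp2*. In females *Pdp1* ran from -0.16 to 0.30, and over both sexes *Pdk3* from -0.20 to 0.81 and *Dld* from -0.0324 to 0.0938. The interaction ran from -0.48 to 0.0757 for *Mpc1*, -0.16 to 0.0596 for *Mpc2*, -0.70 to 0.0259 for *Pdhb*, -0.0627 to 1.96 for *Pdk3*, -0.34 to 0.55 for *Pdk4* and -0.17 to 0.41 for *Pdp2*. The sex difference ran from -0.0308 to 0.0805 for *Mpc2*, -0.0204 to 0.17 for *Pdha1* and -0.0234 to 0.23 for *Pdk1*. Over both sexes, the other 9 members kept the sign of their difference under every alternative run. Fragment counts were not used here, so the precision of low genes such as *Pdk3* and *Pdp1* is unknown, and 2 libraries in most groups limit the tests within a sex.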
